A study of Chlorella sorokiniana and Chromochloris zofingiensis with 12 samples.

Results

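The miR8xx entries are the Arabidopsis thaliana microRNA (miRNA) annotations named miR822 to miR870, without miR827, to which small RNA reads of 2 green algae were assigned. They were chosen by that number alone, among rows typed as miRNA precursor (written mir) or mature miRNA (written miR) in the annotation sheet of each library. The rule found 36 entries, 30 precursors and 6 mature forms of 25 miRNA numbers, of 154 miRNA entries and 893 annotated entries in all. C. zofingiensis listed 31 of them and C. sorokiniana 17, with 12 entries in both species, 19 in C. zofingiensis alone and 5 in C. sorokiniana alone.

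Small RNA was sequenced from total RNA of Chlorella zofingiensis strain ATCC30412 and Chlorella sorokiniana strain NIES-2168, each grown in stress and in normal culture, with 3 libraries per group and 12 in all. Stress cultures were moved at mid log phase to light of about 100 µmol photons and given 2% glucose, and normal cultures stayed at about 10 µmol photons with no glucose named. All cultures were grown in Bold's Basal Medium at 27 °C with shaking at 30 rpm. Light and glucose changed together, so their effects cannot be told apart. Nothing in the labels says that replicates were separate cultures, so p-values measure the spread between these libraries, which may be technical.

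MiRNAs are cut by Dicer-like enzymes from hairpin precursors and guide Argonaute proteins to matching transcripts, which are cleaved or repressed. In Arabidopsis, miR858 is known for targeting R2R3-type MYB transcription factors that switch on flavonol and other phenylpropanoid genes. Many other members of this number range are young miRNAs known from Arabidopsis and its close relatives and absent from most land plants. All names are those of the Arabidopsis entry that a read matched, and do not show that the alga makes that miRNA.

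The reads behind each entry were short tags, and the commonest tag of each main entry is shown because the values that follow count these sequences. Each is written 5′ to 3′ in lower case, with its last base in capitals, the feature that all miR8xx tags had in common.
ath-mir-858b in C. zofingiensis: ttttggagagtA
ath-mir-858 in C. zofingiensis: atcggtttgttA
ath-miR-850 and ath-mir-850 in C. zofingiensis: agatgcggactacA
ath-miR-850 and ath-mir-850 in C. sorokiniana stress libraries: aagatgcggactacA
ath-mir-835 in C. zofingiensis: tgggttgcaagagtA
ath-mir-835 in C. sorokiniana: tcaggcaagattaA
ath-miR-859 and ath-mir-859 in C. zofingiensis: tctctgttgtgA
ath-mir-842 in C. zofingiensis: aaagagaggctA
ath-miR-831 and ath-mir-831 in C. sorokiniana: tcgggctcttcttgcgA
ath-mir-822 in C. sorokiniana: tagggtcgttgtcA
ath-mir-855 in C. sorokiniana: gacgctttcgA
ath-mir-824 in both species: cctgtagctcA
The 2 entries of the miR858 family thus rested on different sequences, and the C. sorokiniana tag of ath-miR-850 is the C. zofingiensis tag with 1 more base at its 5′ end.

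Over both species the miR8xx entries had 42 distinct commonest tags, from 10 to 18 bases long with a median of 13, and 0 of the 42 reached 20 bases. The median length was 14 bases for the 129 distinct tags of other miRNA entries and 16 for tRNA entries. All 42 ended in A, as did 126 of the 129 other miRNA tags and the commonest tag in 97.5% of all listings. Whether the last A is part of the algal RNA was not tested. The tags mapped to between 2 and 49 Arabidopsis loci, with a median of 27.5, against 23 for other miRNA tags and 17 for tRNA tags. No tag mapped to 1 locus, and 9 of the 42 mapped to 10 loci or fewer, so an entry's name is 1 of several places in the Arabidopsis genome that the read could name. The loci themselves were not analysed here.

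**Figure D1:**
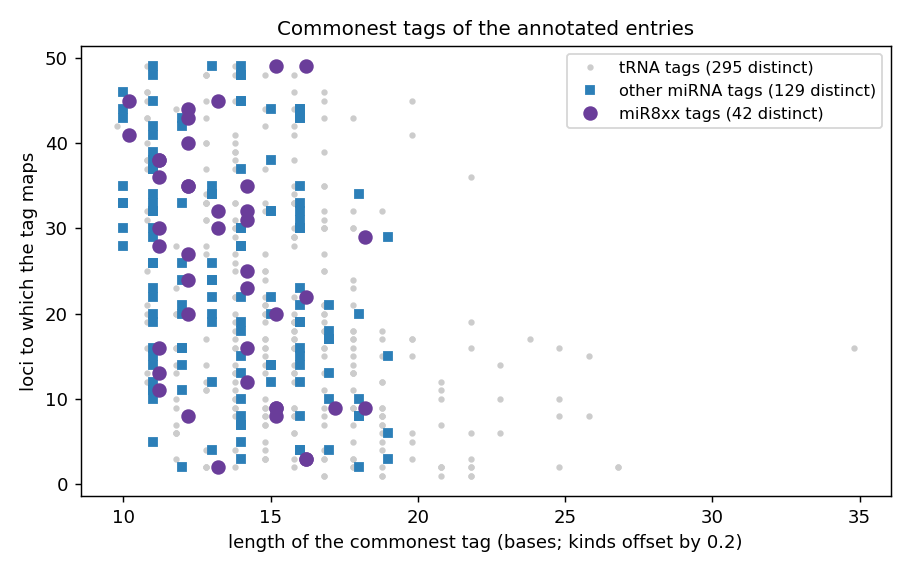
Length in bases (x axis) and number of Arabidopsis loci (y axis) of each distinct commonest tag, for 42 miR8xx tags, 129 other miRNA tags and the tRNA tags, with the kinds offset sideways. The miR8xx tags lie between 10 and 18 bases and between 2 and 49 loci, within the range of the other miRNA tags, while tRNA tags reach 35 bases.

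A single tag held every read of the entry in 90 of 123 listings (1 entry in 1 library), and the lowest share held by a commonest tag was 41.7%. Each of the 23 listings of a mature form had exactly the count of its precursor, so the mature and precursor values of miR-850, miR-859 or miR-831 are 1 measurement printed under 2 names. The 5 precursors ath-mir-854a to ath-mir-854e likewise shared 1 tag of 2 reads. The 36 entries therefore held 28 distinct sets of counts.

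Annotated counts, the sum over all entries of a sheet, ranged from 24978 to 280404 in C. zofingiensis stress libraries and from 14601 to 106200 in its normal libraries. In C. sorokiniana they ranged from 20686 to 26102 in stress libraries and from 2718 to 19408 in normal libraries. The smallest count a sheet listed was 2, and an entry not listed was taken as 0 here. How many reads an entry that was not listed had is not given. A read mapping to several entries was counted at each, so these sums are not the number of reads sequenced.

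In C. zofingiensis the miR8xx entries held 17.4%, 12.2% and 7.77% of the miRNA counts in stress libraries, a mean of 12.5% ± 4.83 (SD, n = 3), and 27.4%, 21.6% and 14.4% in normal libraries, a mean of 21.2% ± 6.52 (SD, n = 3). The 2 groups overlapped as sets, but the share was lower in the stress library of each of the 3 same-numbered pairs. The labels do not state this pairing. In C. sorokiniana the shares were 4.85%, 4.50% and 3.39% in stress libraries, a mean of 4.25% ± 0.77 (SD, n = 3), and 1.17%, 0.63% and 1.04% in normal libraries, a mean of 0.94% ± 0.28 (SD, n = 3). There the groups did not overlap, and every stress library was higher than every normal library. Of all annotated counts they took 0.143% ± 0.117 in stress and 0.463% ± 0.494 in normal libraries of C. zofingiensis (SD, n = 3 each). The stress mean was 0.0866% without stress replicate 1, and the normal mean 0.181% without normal replicate 1. In C. sorokiniana they took 0.285% ± 0.0682 in stress and 0.103% ± 0.0501 in normal libraries (SD, n = 3 each).

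In C. zofingiensis the clearest differences between stress and normal libraries were in the entries named miR858, ath-mir-850, ath-mir-835 and ath-mir-842. Reads of ath-mir-858b were listed in every normal library and in no stress library, while ath-mir-858 showed the opposite. Reads of ath-mir-850, ath-mir-835 and ath-mir-842 were lower in stress than in normal libraries. Counts were small throughout, with 44 reads the highest of any miR8xx entry in any library.

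The miR858 name was listed as 2 precursor entries, ath-mir-858 and ath-mir-858b, and with no mature form. The precursor ath-mir-858b had 0, 0 and 0 reads in stress libraries, against 14, 20 and 21 reads in normal libraries. All 3 normal libraries lay far above every stress library, and the groups did not overlap. Scaled by trimmed mean of M values (TMM, which corrects library totals for composition), the level of ath-mir-858b was 0 CPM (counts per 1000000 scaled counts) in each stress library and averaged 397.4 ± 45.5 CPM in normal libraries (SD, n = 3). Its fitted log2 fold change was -7.50 (SE 0.93), with an adjusted p of 0.00157 in edgeR's quasi-likelihood test with Benjamini-Hochberg adjustment over 248 entries. That fitted value depends on the prior count. The entry ath-mir-858b passed edgeR's filter on low counts only through its normal libraries, where it was high. Against a floor of 3 reads in each stress library, ath-mir-858b was at least 8.62-fold lower in stress by share of annotated counts, and at least 8.49-fold lower by TMM-scaled size. By share, that limit was 4.95-fold without normal replicate 1 and 17.3-fold without stress replicate 3. Every alternative scaling, every left-out library and the replicate block, which pairs libraries of the same number, kept the call.

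The precursor ath-mir-858 had 8, 5 and 11 reads in stress libraries, against 0, 0 and 0 reads in normal libraries. Its reads came from 1 tag mapping to 20 loci, and those of ath-mir-858b from another mapping to 35 loci. The entry did not pass the filter on low counts that edgeR sets from group size and depth, and was therefore fitted among all 792 C. zofingiensis entries with no filter. There its log2 fold change was 6.07 (SE 1.73), with an adjusted p of 0.0103 (edgeR). At the same floor ath-mir-858 was at least 2.02-fold higher in stress by share of annotated counts, and at least 1.89-fold higher by TMM-scaled size. By share, the limit was 4.56-fold without normal replicate 1, and without stress replicate 3 the level was 0.768 times the floor, which leaves no bound. The call did not hold with the replicate block (edgeR adjusted p = 0.0587), with library totals alone (edgeR adjusted p = 0.0731), without normal replicate 2 (edgeR adjusted p = 0.0659) or without normal replicate 3 (edgeR adjusted p = 0.0789). The 2 entries named after the miR858 family thus lay on opposite sides in the same 6 libraries, with ath-mir-858b lower and ath-mir-858 higher in stress. No tag of one was the tag of the other, and no MYB transcript was measured here.

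**Figure D2:**
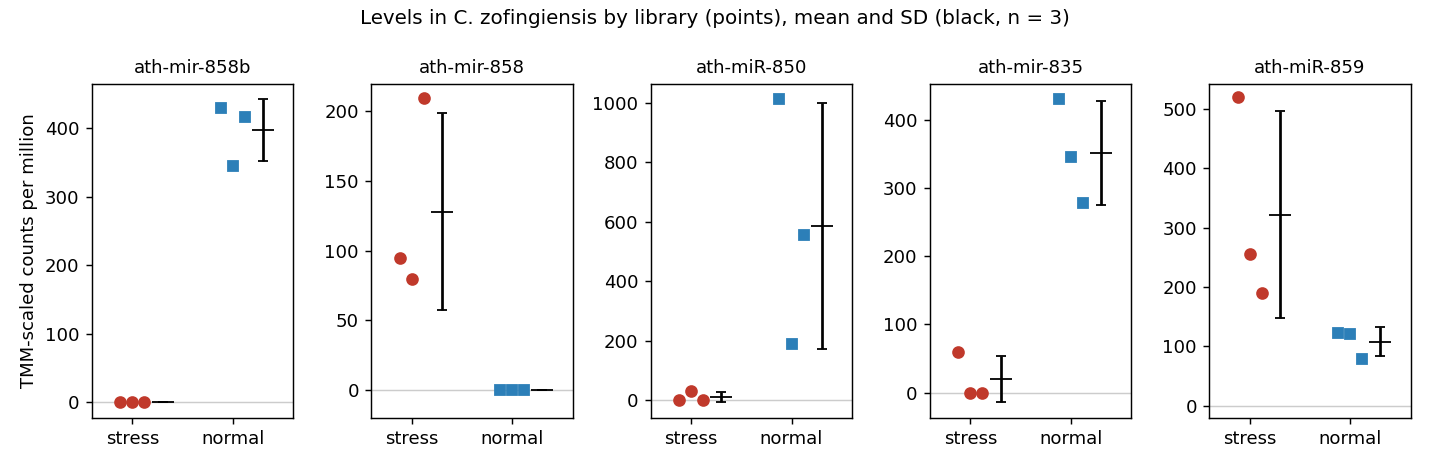
TMM-scaled CPM (y axis, a separate linear scale per panel) of 5 entries in the 3 stress and 3 normal libraries of C. zofingiensis, with the mean and SD of each group in black. The level of ath-mir-858b is 0 in all 3 stress libraries and that of ath-mir-858 is 0 in all 3 normal libraries, while ath-miR-859 is above its normal libraries in each stress library on this scale.

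The mature ath-miR-850 and its precursor had 0, 2 and 0 reads in stress libraries, against 33, 11 and 28 reads in normal libraries. Every normal library lay above every stress library. The TMM-scaled level averaged 10.6 ± 18.4 CPM in stress and 587 ± 413 in normal libraries (SD, n = 3 each), so the normal libraries themselves varied widely. Neither entry passed the filter on low counts. With no filter the log2 fold change was -5.23 (SE 1.15), with an adjusted p of 0.000800 (edgeR). In 11 alternatives that p stayed between 1.33e-05 and 0.0195, and the log2 fold change was -8.01 without stress replicate 2, which holds both stress reads.

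The precursor ath-mir-835 had 5, 0 and 0 reads in stress libraries, against 14, 20 and 14 reads in normal libraries. The groups did not overlap, and 2 of the 3 stress libraries had no listed read. The entry passed the filter on low counts through its normal libraries, where it was high. Its log2 fold change was -3.80 (SE 1.00), with an adjusted p of 0.0168 (edgeR), and -7.10 without stress replicate 1, which holds all 5 stress reads. The call was lost with library totals alone (edgeR adjusted p = 0.146), without stress replicate 2 (edgeR adjusted p = 0.0571) and without normal replicate 2 (edgeR adjusted p = 0.0717).

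In Arabidopsis, miR842 is known for targeting transcripts of jacalin-type lectins. Its precursor entry ath-mir-842 had 2, 0 and 0 reads in stress libraries, against 10, 8 and 8 reads in normal libraries. It did not pass the filter, and with no filter its log2 fold change was -3.92 (SE 1.27), with an adjusted p of 0.0258 (edgeR). Without stress replicate 1, which holds both stress reads, it was -6.15. That call was lost with the replicate block (edgeR adjusted p = 0.0747), with library totals alone (edgeR adjusted p = 0.176), without stress replicate 2 (edgeR adjusted p = 0.0658) and without normal replicate 3 (edgeR adjusted p = 0.0543).

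By reads summed over the 6 libraries, the most abundant miR8xx measurement of C. zofingiensis was that of miR859, with 85 reads against 74 for ath-miR-850, which was higher on the TMM-scaled level of normal libraries. The miR859 family is known in Arabidopsis for targeting F-box transcripts. The mature ath-miR-859 and its precursor had 44, 16 and 10 reads in stress libraries, against 4, 7 and 4 reads in normal libraries. The read counts did not overlap, but as shares of annotated counts they did, stress replicate 2 being the deepest library. Per 10000 annotated counts, ath-miR-859 had 7.23, 0.571 and 4.004 in stress libraries, against 2.74, 0.659 and 0.774 in normal libraries. The TMM-scaled level averaged 322 ± 175 CPM in stress and 108 ± 24.6 in normal libraries (SD, n = 3 each). Its log2 fold change of 1.58 (SE 0.62) missed the threshold, with an adjusted p of 0.0647 (edgeR), a range of 0.0168 to 0.558 over 12 alternatives, and a p below 0.05 in 4 of them.

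The remaining entries with at least 5 reads in some C. zofingiensis library did not differ past the threshold. The precursor ath-mir-832 had 13, 2 and 3 reads in stress libraries, against 9, 8 and 11 reads in normal libraries, with an adjusted p of 0.145 (edgeR). It was 1 of 3 entries listed in all 6 libraries of the species, the others being the 2 names of miR859. The precursor ath-mir-840 had 7, 0 and 0 reads in stress libraries, against 14, 3 and 5 reads in normal libraries. In Arabidopsis, miR824 targets a MADS-box factor of stomatal development and flowering time. Its precursor entry ath-mir-824 had 2, 12 and 2 reads in stress libraries, against 0, 2 and 0 reads in normal libraries. The 12 reads of ath-mir-824 were in stress replicate 2, the library with the most annotated counts. TMM-scaled, it was highest there, at 192 CPM, against 23.7 and 38.1 CPM in stress replicates 1 and 3. Per 10000 annotated counts it was highest in stress replicate 3, at 0.801, against 0.428 in stress replicate 2. The precursor ath-mir-829 had 5, 0 and 0 reads in stress libraries, against 0, 3 and 5 in normal libraries, and ath-mir-868 had 0, 0 and 0 against 2, 5 and 0. With no filter, the adjusted p was 0.166 for ath-mir-840, 0.152 for ath-mir-824, 0.502 for ath-mir-829 and 0.139 for ath-mir-868 (edgeR). The other 18 of the 31 entries stayed under 5 reads in every library, and 13 entries were listed in 1 library only.

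**Figure D3:**
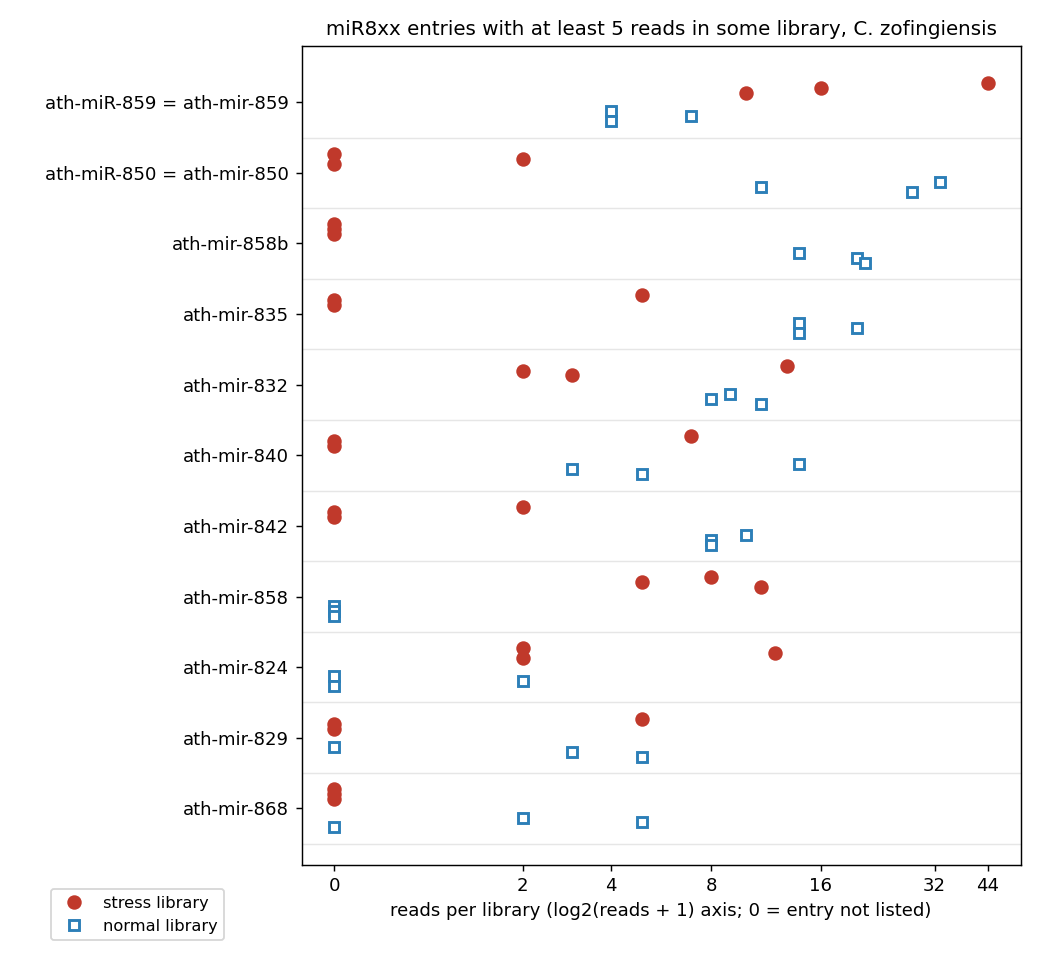
Reads per library (x axis, log2(reads + 1) scale) of the 13 entries with at least 5 reads in some C. zofingiensis library, with mature and precursor forms of equal counts on 1 line. Filled circles are the 3 stress libraries and open squares the 3 normal libraries. The miR858 entries lie on opposite sides, and ath-mir-832 and ath-mir-840 overlap between the groups.

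Counted over all entries, 5 of the 31 C. zofingiensis entries passed the filter on low counts, and 2 of these, ath-mir-858b and ath-mir-835, were called, both lower in stress. Both passed the filter through their normal libraries, where they were high, so their being lower is not separate from their being tested. Over all 248 entries tested, 35.1% were called, 55 higher and 32 lower, so the share among miR8xx entries is near the background. With the replicate block 132 entries, 53.2% of those tested, were called, 55 higher and 77 lower. With no filter 6 of 31 were called, 1 higher and 5 lower, against 17.7% of all 792 entries, of which 14.1% were higher and 3.54% lower. The groups did not overlap, in reads and in shares, for 6 of the 31 entries, 1 above and 5 below, against 15.5% of all entries, 11.5% above and 4.04% below. Read against these shares, the number of miR8xx entries called was close to the background, and 5 of 6 were lower, whereas most calls over all entries with no filter were higher. Since ath-miR-850 and ath-mir-850 are 1 measurement, these are 4 separate lower measurements. With no filter, the median log2 fold change was -0.05 for the 31 entries and 0.74 for all 792. Entries listed in stress libraries alone numbered 11 of 31, against 20.7% of all entries, and those listed in normal libraries alone 8 of 31, against 9.97%. The 11 include ath-mir-854a to ath-mir-854e, which are 1 measurement of 2 reads, and the 8 include ath-miR-830* and ath-mir-830, of equal counts.

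**Figure D4:**
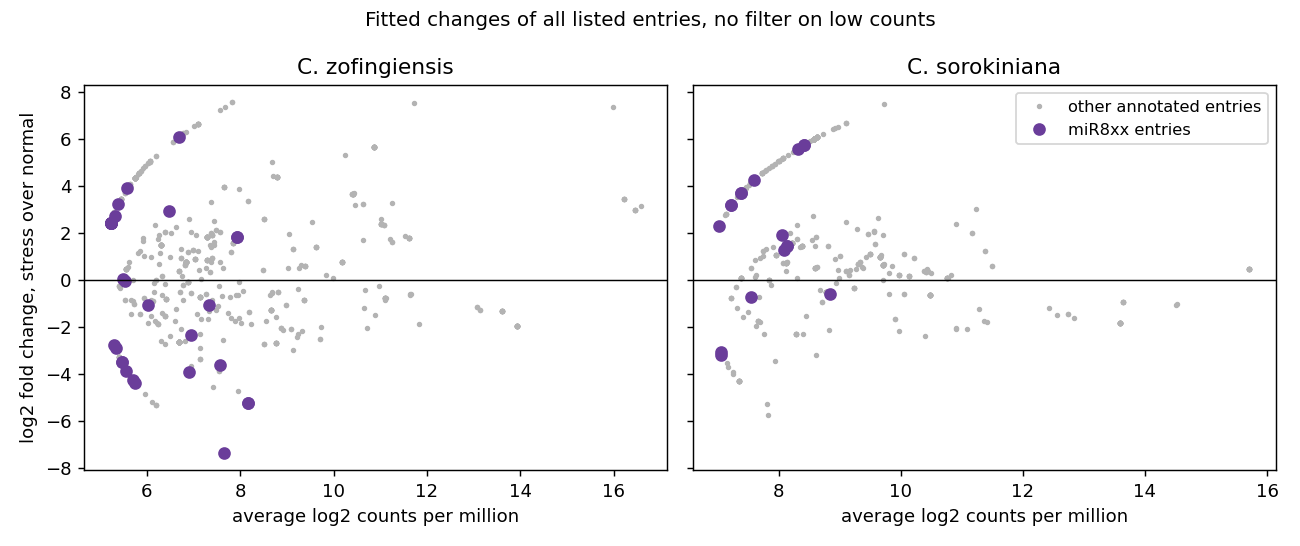
Fitted log2 fold change of stress over normal libraries (y axis) against average log2 CPM (x axis), with no filter on low counts, for all entries of each species (grey) and the miR8xx entries (purple). Points on the curved edges are entries with reads in only 1 of the 2 groups. In C. zofingiensis ath-mir-858b is the lowest miR8xx point at -7.36, and in C. sorokiniana no miR8xx entry was called lower.

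In C. sorokiniana the miR8xx entries that differed most had reads in every stress library and none in any normal library. These were ath-miR-831 with its precursor, and ath-mir-822. Their counts were low, none passed the filter, and their calls rested on the fit without it. A single entry, ath-mir-855, was listed in all 6 libraries and showed no difference past the threshold.

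The mature ath-miR-831 and its precursor had 8, 11 and 7 reads in stress libraries, against 0, 0 and 0 reads in normal libraries. With no filter the log2 fold change was 5.72 (SE 1.83), with an adjusted p of 0.0109 (edgeR). The precursor ath-mir-822, whose Arabidopsis miRNA is known for targeting DC1-domain protein transcripts, had 7, 13 and 4 reads in stress libraries, against 0, 0 and 0 reads in normal libraries. Its log2 fold change was 5.58 (SE 1.88), with an adjusted p of 0.0165 (edgeR). Both calls were lost with the replicate block (edgeR adjusted p = 0.153 for ath-mir-831 and 0.215 for ath-mir-822). For ath-mir-831 the call was also lost without stress replicate 2 (edgeR adjusted p = 0.0693), stress replicate 3 (0.0525) or normal replicate 1 (0.0927). For ath-mir-822 it was lost without stress replicate 2 (edgeR adjusted p = 0.137), stress replicate 3 (0.0525), normal replicate 1 (0.102) or normal replicate 2 (0.0531). Over all 6 libraries no fold can be bounded for either, because 3 reads of the 2718 annotated counts in normal replicate 3 put the floor above the level in stress libraries. Without normal replicate 3 both calls held (edgeR adjusted p = 0.0211 for ath-mir-831 and 0.0327 for ath-mir-822). By share of annotated counts, ath-mir-831 was then at least 2.10-fold and ath-mir-822 at least 1.88-fold higher in stress.

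The precursor ath-mir-855 had 12, 4 and 4 reads in stress libraries, against 8, 5 and 2 reads in normal libraries. The groups overlapped, and with no filter its log2 fold change was -0.63 (SE 0.84), with an adjusted p of 0.563 (edgeR). The mature ath-miR-850 and its precursor had 8, 6 and 2 reads in stress libraries, against 3, 0 and 0 reads in normal libraries, and ath-mir-832 had 4, 5 and 6 against 2, 0 and 0. The precursor ath-mir-824 had 3, 2 and 9 reads in stress libraries, against 0, 0 and 2 in normal libraries. Their adjusted p was 0.439 for ath-miR-850, 0.388 for ath-mir-832 and 0.514 for ath-mir-824 (edgeR, no filter). The precursor ath-mir-858b had 0, 2 and 0 reads in stress libraries and 0, 0 and 0 in normal libraries. It was the only entry named miR858 listed in C. sorokiniana, so reads under that name were few at this depth. The other 9 of the 17 entries stayed under 5 reads in every library.

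**Figure D5:**
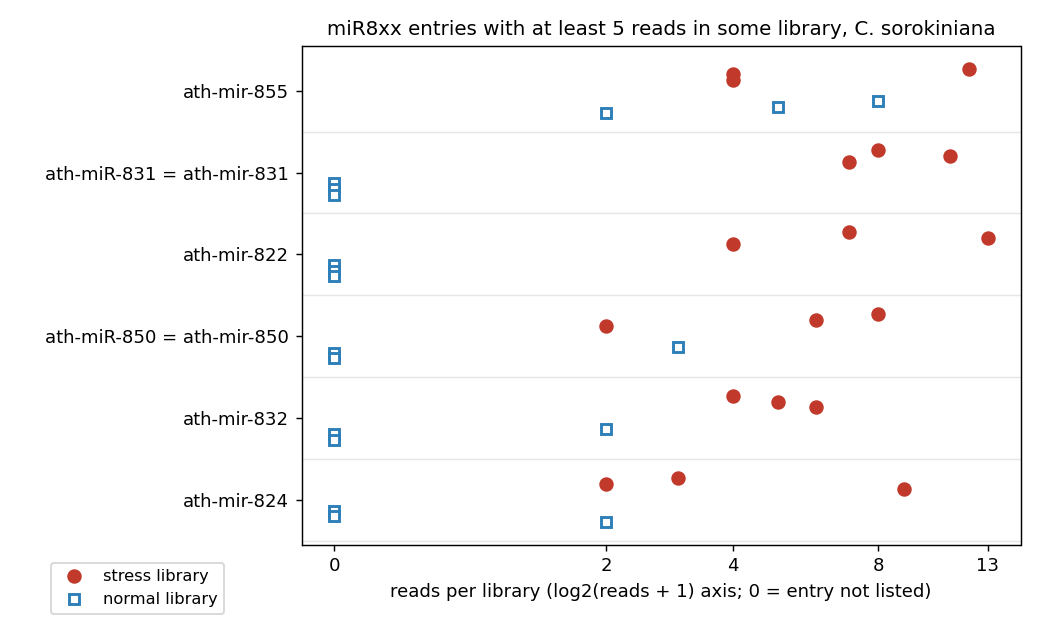
Reads per library (x axis, log2(reads + 1) scale) of the 8 entries with at least 5 reads in some C. sorokiniana library, with mature and precursor forms of equal counts on 1 line. Filled circles are the 3 stress libraries and open squares the 3 normal libraries. The lines of miR-831 and mir-822 have no read in any normal library, and only ath-mir-855 was read in all 6 libraries.

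Of the 17 C. sorokiniana entries, 0 passed the filter, in a species where 33.1% of the tested entries were called, 18 higher and 37 lower. That split turned to mostly higher whenever 1 library was left out, from 41 higher and 16 lower without stress replicate 2 to 7 and 1 without stress replicate 3, and 118 and 20 without normal replicate 2. With no filter 3 of 17 were called, all higher, against 19.7% of all 633 entries, of which 14.5% were higher and 5.21% lower. All 3 calls were lost with the replicate block, which left 5.69% of all entries called. The groups did not overlap for 7 of the 17 entries, all above in stress, against 30.8% of all entries, of which 30.6% were above and 0.158% below. The 7 include both names of miR-830 and both of miR-831, and the 3 calls include both names of miR-831, each pair being 1 measurement. Entries listed in stress libraries alone numbered 9 of 17, against 39.2% of all entries, and those in normal libraries alone 2 of 17, against 9.32%. The median log2 fold change with no filter was 2.28 for the 17 entries and 1.06 for all 633. Normal replicate 3 had 2718 annotated counts and 113 listed entries, fewer than any other library, and its part in these counts was not tested beyond leaving it out.

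The 12 entries listed in both species allowed the responses to be compared. None passed the filter in the fit over all 12 libraries, in which 25.2% of 262 entries were called. With no filter 3 of the 12 were called, against 21.1% of 532 entries. The response of ath-miR-850 and of ath-mir-850 was lower in C. zofingiensis than in C. sorokiniana by a log2 difference of -6.15 (SE 1.66), with an adjusted p of 0.00384 (edgeR). Stress libraries of C. zofingiensis were below their normal libraries, whereas in C. sorokiniana the log2 fold change was 1.44 (SE 1.29). That value was 4.99 without normal replicate 1, which holds all 3 normal reads, and 0.73 without normal replicate 2. For ath-mir-858b the difference was -9.54 (SE 3.44), with an adjusted p of 0.0303 (edgeR), but the C. sorokiniana side rests on 2 reads of another tag, atcaaagtttttgA. The same name often stood for different sequences: 5 of the 12 entries had a commonest tag in common between the species, and 7 had none. Those with one in common were ath-mir-824, ath-mir-832, ath-mir-862 and both names of miR-850. For miR-850 the shared tag was the commonest in C. sorokiniana in 1 normal library only, with 3 reads, and its stress libraries had the longer tag.

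A few tags were also found inside tags of other RNAs. The ath-mir-824 tag was contained whole in tags of 5 tRNA entries and in 2 of the commonest tags listed for C. sorokiniana, which are shown with the shared bases in capitals.
first listed tag: CCTGTAGCTCAgtggactagagcaca
second listed tag: ggCCTGTAGCTCAgtggacta
The first listed tag had 0, 0 and 0 counts in stress libraries, against 471, 262 and 0 counts in normal libraries, and the second 0, 0 and 0 against 0, 264 and 0. A value of 0 in that table marks a tag outside the commonest ones listed for a library. Without its last base, the ath-mir-835 tag of C. sorokiniana was the 3′ end of a tag listed in both species.
tag of both species: tcgacctgagcTCAGGCAAGATTA
This longer tag had 1567, 1051 and 786 counts in stress libraries and 3327, 1194 and 332 in normal libraries of C. sorokiniana. In C. zofingiensis it had 0, 239 and 235 counts in stress libraries, against 1357, 1626 and 1707 in normal libraries. Also without the last base, the tag of ath-mir-851 lay inside tags of 5 entries of 5S ribosomal RNA, that of ath-mir-852 inside tags of 2 tRNA entries, and a tag of ath-mir-840 in C. sorokiniana inside the tag of ath-snoRNA-snoR28. In all, 1 of 42 tags was found whole and 5 of 42 (11.9%) without the last base, against 4 and 12 (9.30%) of the 129 other miRNA tags. Whether such entries were read from tRNA or rRNA fragments was not tested.

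Lists of Arabidopsis families with shared targets gave few measured entries. Of the MYB-targeting families miR159, miR319, miR828 and miR858, 4 entries were listed in C. zofingiensis. Of these 1 passed the filter, ath-mir-858b, and was called lower, against 12.9% of 248 entries tested. It passed through its normal libraries alone, where it was high. With no filter 1 was called higher, ath-mir-858, and 1 lower, ath-mir-858b, against 14.1% and 3.54% of all entries. In C. sorokiniana 3 such entries were listed and 0 tested. Of conserved land plant families, 34 entries were listed in C. zofingiensis with 0 tested, and 8 were called higher with no filter, against 14.1% of all entries. In C. sorokiniana 27 were listed, 6 were tested and all 6 were called lower, against 22.3% of all entries tested. With identical counts entered once, lower calls over the whole species fell from 37 to 1 and higher calls rose from 18 to 40. The direction of the 6 calls is therefore not settled. Whether they are 6 separate measurements was not tested. With no filter, the median log2 fold change of those 27 was 1.44, and their summed reads were 2491 in stress and 2124 in normal libraries. No entry of the miR823, miR838 and miR863 families, known for targeting chromatin, splicing and small RNA machinery, was listed in either species. Of the laccase and copper families miR857, miR397, miR398 and miR408, 2 entries were listed in C. zofingiensis, with 0 tested. With no filter 1 was called higher, against 14.1% of all entries. Of these, ath-mir-857 had 2 reads in all, both in normal replicate 3.

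The miRNA entries most like the miR8xx measurement with the most reads in each species were found among 22 candidates with reads in at least 6 libraries. For ath-miR-859, the Pearson correlation of log2(CPM + 1) over 12 libraries was 0.986 with ath-miR-168b and its precursor, 0.973 with ath-mir-2936 and 0.310 with ath-miR-2111a. For ath-mir-855 it was 0.997 with ath-miR-399b and its precursor, 0.995 with ath-miR-169m and 0.995 with ath-mir-396a. The first 2 of miR-859 had no reads in C. sorokiniana and all 3 of mir-855 none in C. zofingiensis, as had the miR8xx entries themselves, so the high values describe which species lists an entry.

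The authors' deposited table of their own comparison held 6 of the C. zofingiensis and 4 of the C. sorokiniana miR8xx entries. In the authors' deposited table the lowest false discovery rate of a miR8xx entry was 0.667 in C. zofingiensis, shared by ath-miR-850, ath-mir-850 and ath-mir-835, and 1 in C. sorokiniana. Over all entries of the authors' deposited table, 0 of 337 in C. zofingiensis and 13 of 218 in C. sorokiniana had a rate below 0.05. Neither ath-mir-858 nor ath-mir-858b was among the 10 miR8xx rows used from the authors' deposited table.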

How the data were processed

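Small RNA was sequenced in 12 libraries, 3 per group, prepared with NEBNext Multiplex Small RNA reagents, per the labels' protocols. The submitters' processing notes name TAIR9 and DESeq. For the aligner and trimming, no name or version was given in the sources. The authors deposited whole-number counts of reads per Arabidopsis annotation entry in 1 sheet per library, per the file headers, with the commonest tag, its count and its mapping loci. The authors also deposited, per the file headers, a signal of counts divided by mapping loci, tables of the commonest tags with counts, and p-values of their own comparison. Sheets were tied to samples by sheet names equal to sample titles.

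The miR8xx entries and the lists were chosen with earlier results of these data known. Entries absent from a sheet were taken as 0. Counts of each species were tested with edgeR 4.0.16 in R 4.3.3 (glmQLFit, robust, two-sided quasi-likelihood test, TMM, filterByExpr), with Benjamini-Hochberg adjustment over all entries tested and calls at adjusted p below 0.05. Entries failing the filter were read from a fit without it, whose further alternatives were chosen after seeing the data. The species by condition interaction was fitted over 12 libraries on entries listed in both species. Alternatives were DESeq2 1.42.0 size factors and Wald test, library totals alone, no filter, identical counts entered once, the replicate block and each library left out. The scripts were tested on simulated data. Floors of 3 reads cover counting error only, and not reads that the sheets may have left out. Every miR8xx entry with at least 5 reads in some library is given by library, and the others by counts.

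Replicate numbers from the labels were checked for pairing: deviations from group means of same-numbered stress and normal libraries correlated at 0.742, 0.729 and 0.102 in C. zofingiensis (248 entries) and 0.219, 0.331 and 0.161 in C. sorokiniana. All exceed 0.1. In C. zofingiensis 2 different-numbered pairs did too, at 0.237 (stress 3 with normal 1) and 0.190 (stress 2 with normal 3). The others there were below 0, and different-numbered pairs of C. sorokiniana were at 0.0288 or lower. The third C. zofingiensis pair is thus not set apart from different-numbered ones. Deviations cancel out within each group, so a high value for same-numbered pairs pulls the other values down. Low values of different-numbered pairs are therefore no separate evidence of pairing. Taking the numbers as pairs is an assumption drawn from these correlations and not from the labels. Blocked values are given where they change a call. TMM factors ranged from 0.225 to 2.33 in C. zofingiensis and from 0.742 to 1.21 in C. sorokiniana.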

Additional observations from a re-analysis of the deposited data

Results flagged for a closer look

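By the test of the interaction in edgeR with no filter on low counts, 3 of 12 entries were called, against 21.1% of 532 entries. The 3 are 2 measurements. For ath-miR-850 and for ath-mir-850 the log2 response of C. zofingiensis minus that of C. sorokiniana was -6.15, with 0, 2 and 0 reads in stress and 33, 11 and 28 in normal libraries of C. zofingiensis, and 8, 6 and 2 in stress and 3, 0 and 0 in normal libraries of C. sorokiniana. For ath-mir-858b the difference was -9.54. C. zofingiensis had 0 reads in each stress library and 14, 20 and 21 in normal libraries, and C. sorokiniana 2 reads in all. Those 2 reads came from another tag, so this value does not compare the same sequence between the species. For miR-850 the commonest tag was 15 bases long in C. sorokiniana stress libraries, against 14 bases in C. zofingiensis.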

How the results depend on the processing

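Counts of called entries moved with the processing, and no miR8xx entry with at least 5 reads changed direction. In C. zofingiensis, 87 calls became 35 with library totals alone, 140 with no filter, 37 with identical counts entered once and 132 with the replicate block, and 88 to 193 when a library was left out, the highest without normal replicate 1. The split was 55 higher and 32 lower, against 60 and 17 with DESeq2 size factors, 18 and 17 with library totals and 55 and 77 with the replicate block. The 2 called miR8xx entries became 1 with library totals, 4 with the DESeq2 Wald test, 6 with no filter and 2 to 6 with a library left out, namely 4 without stress replicate 1, 6 without stress replicate 3 and 4 without normal replicate 1. In C. sorokiniana, 55 calls became 36 with DESeq2 size factors, 125 with no filter and 8 to 138 with a library left out, namely 8 without stress replicate 3 and 117, 138 and 132 without normal replicates 1, 2 and 3. The split was 18 higher and 37 lower, against 17 and 19 with DESeq2 size factors, 29 and 30 with library totals, 22 and 22 with the DESeq2 Wald test and 40 and 1 with identical counts entered once. With a library left out it was 63 and 15, 41 and 16, and 7 and 1 without stress replicates 1, 2 and 3, and 88 and 29, 118 and 20, and 95 and 37 without normal replicates 1, 2 and 3. The 0 called miR8xx entries became 3 with no filter, which is the number at an unadjusted p below 0.05, and stayed 0 in the filtered settings, where at most 1 of the 17 entries was tested. The 66 interaction calls became 15 with DESeq2 size factors and 112 with no filter. Scaling moved the median log2 fold change of all tested entries from -0.30 to 0.05 with DESeq2 size factors in C. zofingiensis, and from 0.19 to 0.68 in C. sorokiniana.

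The mean share of miRNA counts in C. zofingiensis normal libraries was 29.1% over mature entries alone. In C. sorokiniana stress libraries it was 2.94% with counts divided by loci and 3.02% over mature entries alone. In C. sorokiniana normal libraries it was 0.56% with counts divided by loci, 1.52% over precursors alone and 0.14% over mature entries alone. The causes of these changes were not tested. With the replicate block ath-mir-858b kept its call, with a log2 fold change of -7.51, as did ath-mir-835 at -4.04 and ath-mir-850 at -5.18 with no filter. Blocked values that lost a call stand in the results, and 48 entries were called with the block in C. sorokiniana. No miR8xx entry passed the filter in the 12-library fit, so only the setting with no filter gave a value for these entries. Depth limits the rest: 18 of 31 and 9 of 17 entries stayed under 5 reads.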
